A study of Mus musculus with 18 samples.

Results

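Among the regions of acetylated chromatin in adult mouse cerebral cortex, 3963 carried serine 5 phosphorylated RNA polymerase II (PolII_S5P) and no peak of the histone mark H3K4me1. They were taken from 83349 regions, made by joining H3K27ac peaks of 3 animals on chromosomes 1 to 19 wherever they shared at least 1 bp. A member had to be under 5000 bp wide, with H3K27ac peaks from at least 2 libraries, PolII_S5P peaks from at least 2 of 3 libraries and no overlapping H3K4me1 peak in any library. Of the 83349 regions, 51119 met the width and H3K27ac conditions (called eligible regions below), and the members made up 7.75% of these. The members were thus chosen by measured values, the peaks in 9 lists of H3K27ac, PolII_S5P and H3K4me1, and the values of these lists at the members are given as description. The lists of MBD3 and TDG played no part in the choice.

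All of the tissue was from wild-type C57BL/6J mice, 3 females at 14 weeks of age that the labels call animals 5, 7 and 9, and no treatment is named. Cortices were bought frozen and cut up in fixative, and each animal gave 1 chromatin immunoprecipitation (ChIP-seq) library per antibody, 15 in all, and 1 input sample that was not analysed here. Every library is of whole cortex, so peaks on the same region may come from different cells, which these data cannot tell apart.

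H3K27ac is an acetylation of histone H3 found at active promoters and enhancers, and H3K4me1 is a methylation found mainly at enhancers and on the flanks of promoters. Phosphorylation of serine 5 marks polymerase that has started transcription, so its peaks gather near start sites, and acetylated sites with polymerase but without H3K4me1 have the makeup known of active promoters. MBD3 is a subunit of NuRD, a complex that remodels nucleosomes and removes acetyl groups from histones. TDG is a DNA glycosylase that excises oxidized methylcytosine and mismatched thymine. The lists are on the mouse build mm39, for which no gene annotation or genome sequence was used here, so whether the members lie at gene starts was not tested and regions are given by position.

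The lists differed in length and in where their strength lay. On chromosomes 1 to 19 the PolII_S5P lists held 4351, 19509 and 12526 peaks in animals 5, 7 and 9, and the TDG lists 125, 240 and 934. Because 2 libraries were required and the list of animal 5 was short, the choice rested mainly on animals 7 and 9. The rule gave 3914 sites without animal 5, 1379 without animal 7 and 1405 without animal 9. Of the members, 35.1% had a PolII_S5P peak in animal 5, against 99.7% in animal 7 and 97.2% in animal 9, and 1269 members (32.0%) had PolII_S5P in all 3 animals. H3K27ac was called at 99.4%, 99.1% and 90.7% of members in animals 5, 7 and 9, and in all 3 animals at 3536 of them. Of all PolII_S5P peaks in animals 5, 7 and 9, 32.9%, 21.8% and 32.0% lay on members, which were chosen for having such peaks. The members covered 6.33 Mb. Sequencing depth is unknown, so a missing peak may mean absence of the protein or too few reads.

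The rule was also applied in 2 animals at a time and the remaining animal read as a replicate that had not chosen the sites. Sites with H3K27ac and PolII_S5P peaks in 2 animals and no H3K4me1 in either had an H3K4me1 peak in the animal left aside in 5.44%, 10.6% and 1.35% of cases (animals 5, 7 and 9). Among all sites with H3K27ac in the same 2 animals, those values were 30.5%, 39.7% and 20.6%. The mean difference was -24.5 ± 4.98 percentage points (SD, n = 3 animals), in the same direction in 3 of 3, and it was -9.67 points when only peaks with a −log10 q-value of at least 5 were used. PolII_S5P was called in the animal left aside at 33.7%, 99.2% and 92.2% of the rule's sites, against 5.06%, 22.2% and 14.8% of all sites, a mean difference of 61.0 ± 28.0 points. Each comparison had a two-sided exact permutation p of 0.1, the smallest that 3 values against 3 can give, and an adjusted p of 0.167 over 10 tests. No test of this size can pass a threshold of 0.05. The sites set against the rule's sites were chosen by neither mark and included the rule's own sites. A mark that repeats between animals therefore gives these directions, so the differences show only how far the calls repeat.

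Members were intermediate in width, and their acetylation ranked high in animals 5 and 7. Their median width was 1391 bp (quartiles 934 and 2002 bp). Regions with PolII_S5P that also had H3K4me1 peaks in at least 2 libraries, of which there were 1254, had a median of 1959 bp. The 10760 regions with H3K4me1 in at least 2 libraries and no PolII_S5P, a makeup known of active enhancers, had a median of 1356 bp, and the 21088 with neither mark one of 783 bp. Of the members, 28.6% were under 1000 bp and 8.91% reached 3000 bp. The narrowest member, at chromosome 3, 115650089 to 115650367, measured 279 bp, and the widest, at chromosome 7, 43982842 to 43987835, measured 4994 bp.

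Strength is described by the fold enrichment that the authors' peak caller gave, ranked within its own list as a percentile, since folds of different lists are not on a common scale. The strongest H3K27ac peak of a member had a median percentile of 83.9, 80.7 and 61.6 in animals 5, 7 and 9, with median folds of 5.86, 5.47 and 4.09. At regions with PolII_S5P and H3K4me1 the medians were 82.1, 80.9 and 74.6, and at regions with H3K4me1 and no PolII_S5P they were 65.9, 65.8 and 69.0. In animal 9 the members thus ranked below both. Animal 9 was lower than the other animals at the members, by more than at the regions with both marks. PolII_S5P peaks on members ranked at 38.0, 70.5 and 44.2 in animals 5, 7 and 9, against 57.2, 70.9 and 62.4 on regions that also had H3K4me1. With the PolII_S5P lists shortened to 4351 peaks each, members had 38.0, 58.9 and 54.7, against 57.2, 51.4 and 56.7. Members were then higher in animal 7, and the gap in animal 9 was small. The same members tended to be strong in each animal. Across members, Spearman's rho of the H3K27ac fold between pairs of animals was 0.73 to 0.81, and that of the PolII_S5P fold 0.54 to 0.64. These correlations run across sites that share their libraries and are descriptions only.

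**Figure D1:**
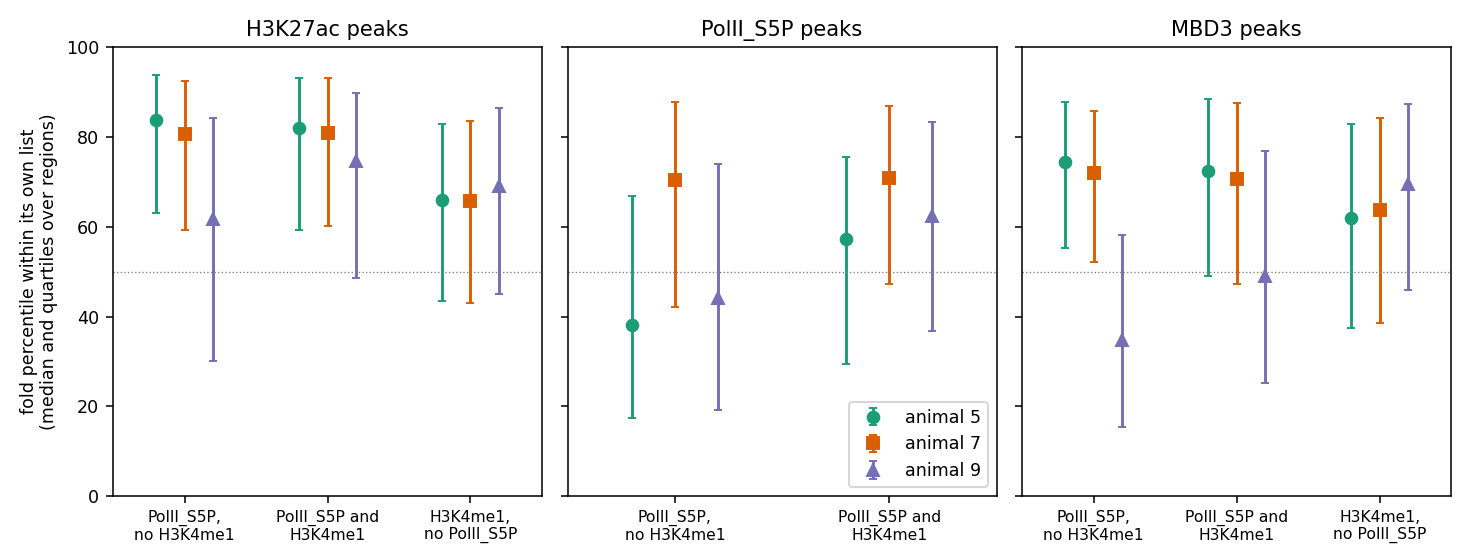
Fold percentile of the strongest peak on a region within its own list, for H3K27ac (left), PolII_S5P (middle) and MBD3 (right); symbols are medians over regions, bars are quartiles, and symbol shape and colour give the animal. At regions with PolII_S5P and no H3K4me1, animal 9 has the lowest medians for H3K27ac (61.6) and MBD3 (34.8).

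MBD3 lay on nearly every member in animals 5 and 7 and on most in animal 9. It was called at 3786, 3798 and 3131 of 3963 members in animals 5, 7 and 9, which is 95.5%, 95.8% and 79.0%. The background over all eligible regions was 54.2%, 57.6% and 41.9%. Exact 95% binomial intervals, which cover counting error only, were 94.8 to 96.2%, 95.2 to 96.4% and 77.7 to 80.3%. In all 3 animals together MBD3 was found at 3118 members (78.7%), against a background of 38.2%, and in no animal at 136 (3.43%), against 36.8%. Of the 652 members with MBD3 in 2 animals, 641 lacked it in animal 9 alone, while only 2 members had it in animal 9 alone.

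The share of regions with MBD3 was larger at members than in each of the other classes, in every animal. Regions with PolII_S5P and H3K4me1 had MBD3 at 73.0%, 76.9% and 62.6% in animals 5, 7 and 9, so that members averaged 90.1 ± 9.63% and these regions 70.8 ± 7.38% (SD, n = 3 each). The difference within an animal was 22.6, 18.96 and 16.4 percentage points, with a mean of 19.3 ± 3.10. For regions with H3K4me1 and no PolII_S5P the shares were 55.4%, 61.2% and 44.6%, a mean difference of 36.4 ± 3.23 points. At regions with neither mark they were 41.7%, 43.9% and 29.1%, a mean difference of 51.9 ± 1.96 points (SD, n = 3). In each of the 3 comparisons the lowest member value lay above the highest value of the other class (two-sided exact permutation p = 0.1, the smallest possible, adjusted p = 0.167 over 10 tests). Against regions with PolII_S5P and H3K4me1, the values overlapped when only MBD3 peaks, or all peaks, with a −log10 q-value of at least 5 were used (exact permutation p = 0.3 each). They also overlapped when the MBD3 summit had to lie inside the region or H3K27ac peaks were merged within 500 bp (exact permutation p = 0.2 each). The mean difference was 21.8 points with the stricter MBD3 peaks and 17.5 with all peaks stricter. It was 11.5 points with the summit inside the region and 14.6 with the merging. With animal 5 left out of both the choice of sites and the readout, the difference from regions with PolII_S5P and H3K4me1 was 21.1 points, and with animal 9 left out it was 18.98 points. The classes were read in the same 3 MBD3 libraries, so these values are not independent of each other.

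**Figure D2:**
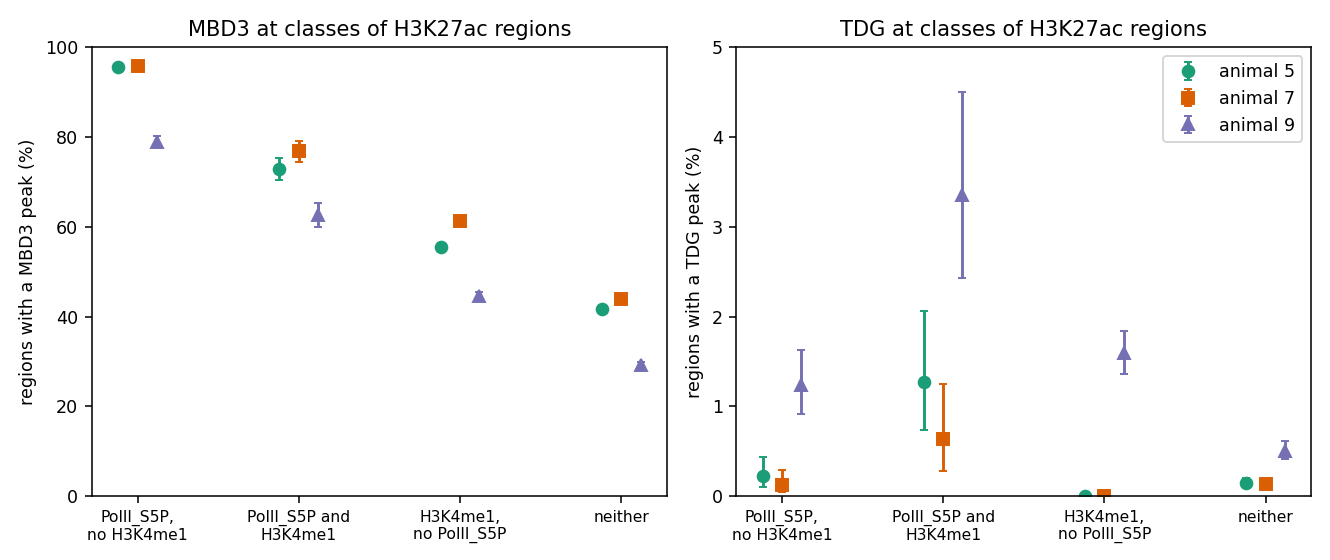
Percent of H3K27ac regions with an MBD3 peak (left) and a TDG peak (right) in each of 4 classes, by animal; bars are exact 95% binomial intervals, which cover counting error only, and the vertical scales differ. MBD3 is highest at regions with PolII_S5P and no H3K4me1 in every animal (95.5%, 95.8% and 79.0%), whereas TDG stays under 5% in each class.

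In the mean share with MBD3 over 3 animals, members stood farthest from the other classes at the narrowest regions. In the narrowest of 5 width classes (279 to 844 bp), MBD3 lay at 90.3%, 91.0% and 60.4% of 792 members in animals 5, 7 and 9. Regions of the same width with PolII_S5P and H3K4me1 had 25.5%, 34.9% and 21.5%, close to the 28.7%, 31.4% and 18.4% of regions with neither mark. In the widest class (2221 to 4994 bp) members had 98.2%, 98.0% and 93.2%, and regions with PolII_S5P and H3K4me1 had 90.4%, 92.0% and 82.7%. The share of members with MBD3 thus varied little with width in animals 5 and 7. In animal 9 it spanned 60.4% to 93.2% from the narrowest to the widest class. With the comparison made inside width classes, the mean difference between members and regions with both PolII_S5P and H3K4me1 was 29.2 points, against 19.3 without them.

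**Figure D3:**
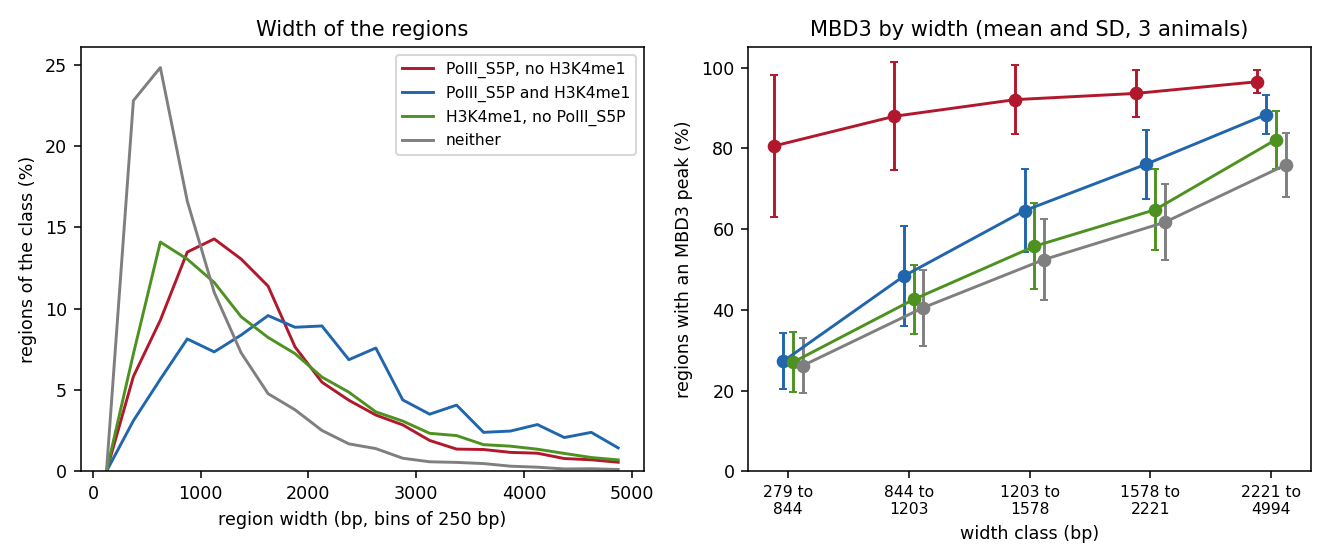
Left, distribution of region width in bins of 250 bp for 4 classes of H3K27ac region, as percent of the class; right, percent of regions with MBD3 in 5 width classes holding equal numbers of members, as mean and SD over 3 animals. Members keep a mean of 80.6% in the narrowest class, where the other classes lie between 26.2% and 27.3%.

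The rule's own thresholds can be read as steps. Among eligible regions without H3K4me1, MBD3 was at 38.3 ± 7.98% where no library had PolII_S5P, at 80.9 ± 10.9% where 1 library had it, at 89.5 ± 9.69% with 2 and at 91.4 ± 9.51% with 3 (SD, n = 3 animals). The 2587 regions with PolII_S5P in 1 library, just outside the rule, were thus nearer to the members than to the regions without polymerase. Among eligible regions with PolII_S5P in at least 2 libraries, MBD3 was at 90.1% where no library had H3K4me1. It was at 83.6 ± 6.49% with H3K4me1 in 1 library, at 76.6 ± 6.71% with 2 and at 66.1 ± 7.98% with 3. That order held in each of the 3 animals, while the median width ran from 1391 bp to 2018.5 bp along the same steps. At the 427 members with H3K27ac in 2 libraries MBD3 was at 67.1 ± 20.0%, against 32.6 ± 9.35% at the 349 regions with H3K27ac in only 1 library that met the other conditions (median width 373 bp). For width, 50 members of 4500 bp or more had MBD3 at 98% in every animal, and 28 regions of 5000 bp to under 5500 bp, just outside the rule, had it at 100%, 100% and 96.4%.

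**Figure D4:**
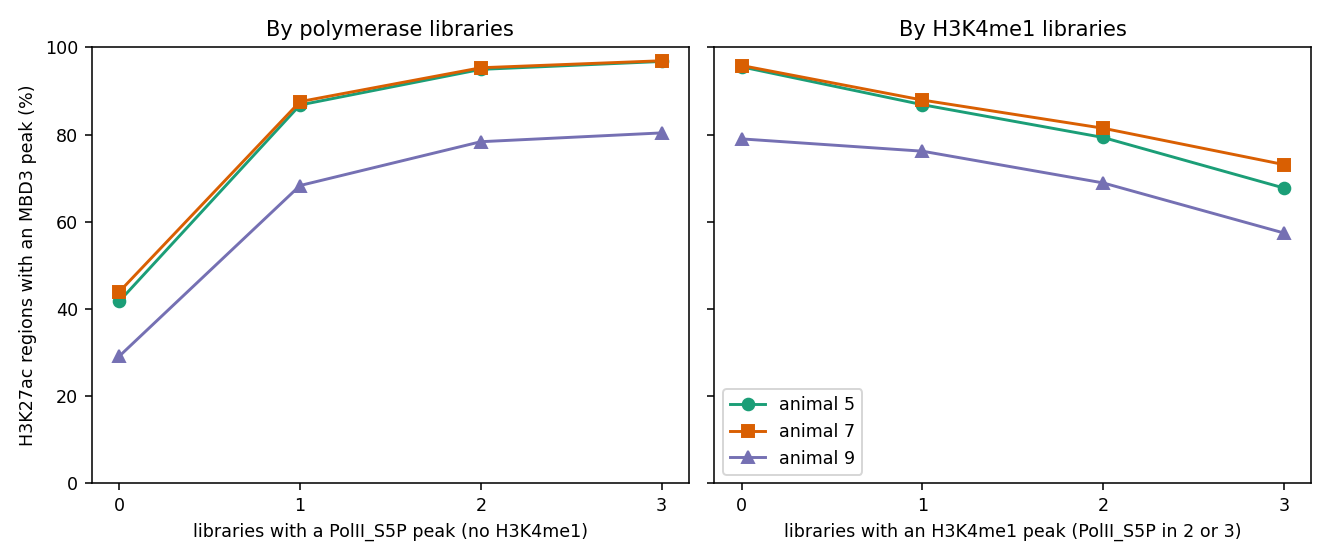
Percent of eligible H3K27ac regions with MBD3 against the number of libraries with PolII_S5P at regions without H3K4me1 (left) and against the number with H3K4me1 at regions with PolII_S5P in 2 or 3 libraries (right), 1 line per animal. Values go up with each polymerase library, the largest step being the first, and go down with each H3K4me1 library in all 3 animals.

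Where MBD3 was present, its strength at members differed between animals. The median fold percentile of MBD3 on members was 74.4, 71.9 and 34.8 in animals 5, 7 and 9, and on regions with PolII_S5P and H3K4me1 it was 72.5, 70.7 and 49.1. The difference was 1.90, 1.22 and -14.3 points, so the animals did not share a direction (two-sided exact permutation p = 0.9, adjusted p = 1). The mean difference was -3.71 points with all animals, 3.10 without animal 9 and -10.7 without animal 5. On regions with H3K4me1 and no PolII_S5P the medians were 62.0, 63.7 and 69.6, with animal 9 the highest. The MBD3 peaks on members were also narrower in animal 9, with a median of 596 bp, against 1086.5 bp in animal 5 and 1073.5 bp in animal 7. With the 3 MBD3 lists shortened to 38821 peaks each, the medians at members were 65.5, 62.2 and 34.8, so the gap did not close at equal length. H3K27ac was lower at members in animal 9 as well, as given above. The part of library quality in this was not tested.

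MBD3 followed the strength of acetylation more than that of polymerase. In the weakest of 5 classes of H3K27ac percentile, MBD3 lay at 85.5%, 85.9% and 54.9% of members, and in the strongest at 99.1%, 99.7% and 93.2% (animals 5, 7 and 9). Along classes of PolII_S5P percentile it ran the other way by a small amount, with 97.9%, 97.9% and 85.0% in the weakest and 93.4%, 94.3% and 74.9% in the strongest. That percentile was averaged over the animals with a peak, and peaks of animal 5 ranked lowest at members (median 38.0). The part of this in the order was not tested. By number of PolII_S5P libraries MBD3 went up instead, from 89.5% with 2 to 91.4% with 3. Across members Spearman's rho of the MBD3 fold with the H3K27ac fold was 0.34, 0.29 and 0.21, and with the PolII_S5P fold 0.02, 0.06 and 0.07 (1338 to 3787 members per animal, descriptions across sites of shared libraries). The pattern was not particular to members. At regions with PolII_S5P and H3K4me1, MBD3 averaged 36.9% in the weakest and 91.9% in the strongest of the same H3K27ac classes. Along the PolII_S5P classes it went from 90.8% to 63.4% there. Regions with H3K4me1 and no PolII_S5P went from 38.7% to 78.6% along the H3K27ac classes. The 136 members without MBD3 in any animal were narrower, with a median of 911 bp against 1494 bp for the 3118 with MBD3 in all animals. Their H3K27ac peaks had median percentiles of 37.5, 35.1 and 36.8, against 87.0, 84.3 and 64.8. Their PolII_S5P peaks did not rank lower throughout, at 55.6, 65.7 and 60.7 against 36.6, 69.7 and 40.2.

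The summits of the peaks, the points of highest enrichment, lay at different distances from each other inside the members. The MBD3 and PolII_S5P summits of the same animal lay a median of 136, 123 and 139 bp apart in animals 5, 7 and 9, and within 50 bp of each other at 24.9%, 25.5% and 18.8% of members. The H3K27ac summit was seldom that close to polymerase, within 50 bp at 7.42%, 6.36% and 6.70%. It lay instead most often 100 to 150 bp away, at 21.8%, 23.2% and 21.3%, with medians of 167.5, 160 and 166 bp. MBD3 and H3K27ac summits were farthest apart, with medians of 229, 228 and 243 bp. Where both offsets from polymerase reached 20 bp, MBD3 and H3K27ac lay on opposite sides of it at 51.0%, 53.9% and 54.4% of members. The exact 95% binomial intervals, which cover counting error only, were 48.1 to 53.9%, 52.2 to 55.6% and 52.5 to 56.3%. An even split gives 50%, but whether unrelated summits inside a bounded region would split evenly was not tested. At regions that also had H3K4me1 the shares were 42.7%, 43.2% and 45.7%. MBD3 and PolII_S5P summits there lay within 50 bp at 20.8%, 24.2% and 20.9%, in animal 9 more often than at members. For H3K27ac and PolII_S5P it was 14.5%, 10.2% and 9.09%. At those regions the MBD3 to PolII_S5P medians were 158, 143 and 148 bp, a mean difference of -17.0 ± 7.00 bp for members (SD, n = 3, two-sided exact permutation p = 0.1, adjusted p = 0.167). This difference turned to 6.67 bp when only peaks with a −log10 q-value of at least 5 were used. It was -1.67 bp with lists of equal length and -10.0 bp without animal 7.

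**Figure D5:**
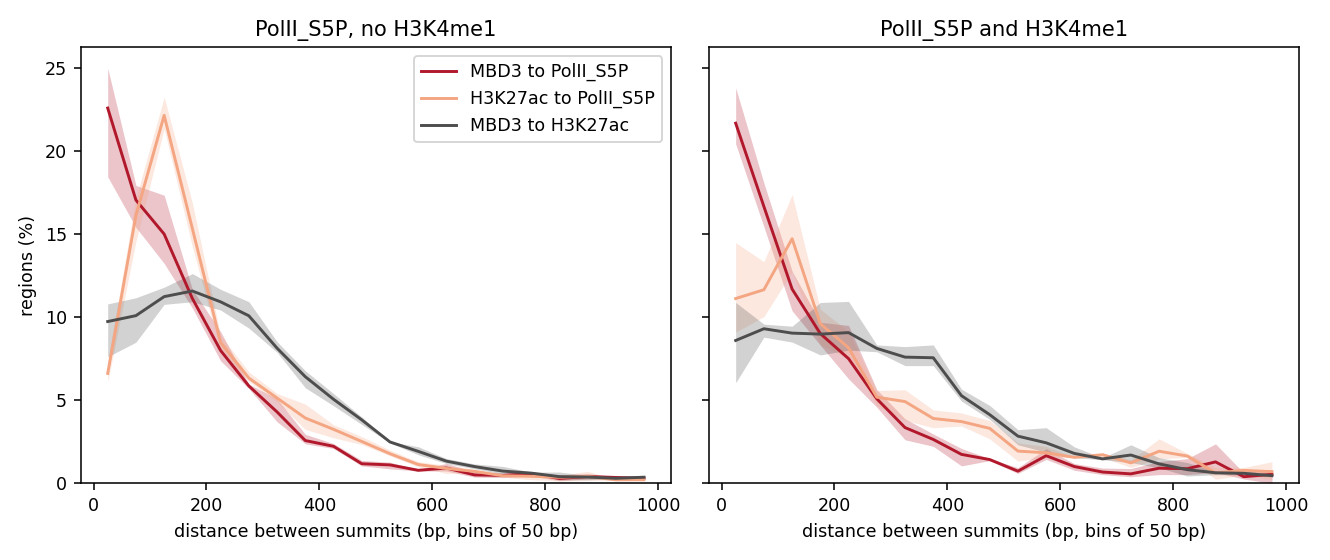
Distance between the summits of the strongest peaks of an animal on a region, in bins of 50 bp, for regions with PolII_S5P and no H3K4me1 (left) and with both (right); lines are means over 3 animals and bands the lowest and highest animal. On the left, H3K27ac to PolII_S5P distances peak at 100 to 150 bp, whereas MBD3 to PolII_S5P distances are most frequent under 50 bp. Both mean lines peak in the same bins on the right.

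Although no H3K4me1 peak overlapped a member, many had one close by. A peak of any library lay within 1000 bp of 1688 members (42.6%), and on both sides of 173 (4.37%). Of the regions with neither PolII_S5P nor H3K4me1, 18.7% had one within 1000 bp. The median gap to the nearest H3K4me1 peak was 7584, 3348 and 25403 bp in animals 5, 7 and 9, the longest in the animal with the fewest H3K4me1 peaks. Members with H3K4me1 on 1 side (1515) had MBD3 at 98.0%, 98.1% and 80.1%, and those with none within 1000 bp (2275) at 94.1%, 94.5% and 78.8%. Members with H3K4me1 on both sides were narrower (median 1066 bp) and had MBD3 at 93.6%, 93.6% and 71.7%.

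TDG was rare on members. A TDG peak lay on 9, 5 and 49 members in animals 5, 7 and 9, that is 0.227%, 0.126% and 1.24%, close to the background of 0.147%, 0.123% and 1.02% over all eligible regions. At least 1 animal had TDG on 51 members (1.29%, background 1.06%), and 2 or 3 animals on 7 (0.177%, background 0.151%). Regions with PolII_S5P and H3K4me1 had TDG at 1.28%, 0.638% and 3.35%, above the members in each animal, with a mean difference of -1.22 ± 0.815 points for members. The groups overlapped, since animal 9 at members lay above animal 7 at the other regions (two-sided exact permutation p = 0.2, adjusted p = 0.286). The difference was -4.16 points without animal 7 and -1.86 without animal 5. Against regions with H3K4me1 and no PolII_S5P, where the values were 0%, 0% and 1.59%, the difference took both signs (p = 1 by the exact permutation test, adjusted p = 1). Regions with neither mark had 0.142%, 0.133% and 0.503% (exact permutation p = 0.7, adjusted p = 0.875), a mean difference of 0.271 points that was 0.713 without animal 7. With 125 TDG peaks in animal 5, shares of this size rest on few peaks.

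Most members had MBD3 whether or not they had TDG, and only in animal 9 did the shares lie far apart. In animals 5, 7 and 9, MBD3 of the same animal lay at 8 of 9, 5 of 5 and 47 of 49 members with TDG, and at 95.5%, 95.8% and 78.8% of members without TDG. The TDG and MBD3 summits were a median of 87.5, 20 and 86 bp apart, and the TDG and PolII_S5P summits 175, 135 and 199.5 bp. Members with TDG in any animal had stronger acetylation than the rest, with median H3K27ac percentiles of 92.0, 90.2 and 86.9 against 83.8, 80.5 and 59.6. In the strongest of 5 classes of H3K27ac percentile, 99.1%, 99.7% and 93.2% of members had MBD3.

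All 7 members with TDG in 2 or 3 animals carried MBD3 in every animal, against 78.7% of all members, a wider set. The 7 also had H3K27ac in all 3 animals. Members with H3K27ac in all 3 had MBD3 at 97.7%, 97.8% and 83.2% in animals 5, 7 and 9. In 6 of the 7 the mean PolII_S5P percentile was under 50, as in 46.9% of all members, while 5 of the 7 had PolII_S5P in all 3 animals, as did 32.0% of all members. Over the 51 members with TDG in any animal, the median PolII_S5P percentiles were 47.1, 63.4 and 52.1 in animals 5, 7 and 9, against 37.9, 70.6 and 44.1 for members without TDG, so neither group was lower in every animal. The best mean TDG percentile, taken over the animals with a peak, was at chromosome 13, 23714600 to 23716024, with TDG folds of 15.3 and 17.8 in animals 5 and 9 and no TDG peak in animal 7. It was the exception in polymerase, with PolII_S5P folds of 9.59, 13.5 and 7.76 in animals 5, 7 and 9. At chromosome 5, 129577626 to 129578988, TDG reached folds of 14.6, 15.9 and 20.9, of which that in animal 9 was above the region on chromosome 13, while PolII_S5P had 2.25, 3.48 and 3.02. The narrowest of the 7, at chromosome 2, 18591980 to 18592586 (607 bp), had TDG folds of 13.1, 14.4 and 18.8. Its nearest H3K4me1 peak was 90478 bp away, whereas 5 of the 7, and 42.6% of all members, had one within 1000 bp. The others were at chromosome 7, 19294872 to 19297338, chromosome 9, 99450326 to 99451417, chromosome 2, 91540472 to 91542005, and chromosome 17, 26093540 to 26095171.

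The 8 members with the strongest polymerase were taken among those with PolII_S5P and H3K27ac in all 3 animals. Of these 8, 7 had MBD3 in all 3 animals, against 78.7% of all members, a wider set. Members with H3K27ac in all 3 animals had MBD3 at 97.7%, 97.8% and 83.2% in animals 5, 7 and 9. Of the 8, 0 had TDG in any animal, against 1.29% of all members. First was chromosome 11, 87313133 to 87314014, an 882 bp region with PolII_S5P folds of 78.3, 150 and 141 in animals 5, 7 and 9. Its H3K27ac folds were 4.80, 5.19 and 5.60, and an H3K4me1 peak lay 141 bp from its edge. The region at chromosome 11, 87316722 to 87317569, with PolII_S5P folds of 47.5, 89.9 and 68.9, had MBD3 in animals 5 and 7 but not in animal 9. Seen after ranking, 7 of the 8 lay within 50 kb of another of the 8, in groups on chromosomes 11 and 12. On chromosome 12 these were 54742112 to 54743682, 54756662 to 54757204 and 54785318 to 54785683, with PolII_S5P folds of 20.5 to 64.9. The remaining 3 were at chromosome 11, 101531745 to 101533482 and 101536104 to 101537684, and chromosome 4, 131996461 to 131998338.

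The 8 members with the strongest MBD3 shared 2 regions with that set, the pair on chromosome 11 near 101531745. There MBD3 had folds of 36.3, 31.8 and 21.2 at the first region and 32.2, 32.5 and 21.3 at the second. The other 6 had no PolII_S5P peak in animal 5, which was also lacking at 64.9% of all members. The best in mean MBD3 percentile, at chromosome 5, 78732943 to 78733530 (588 bp), had MBD3 folds of 34.2, 39.1 and 38.3, PolII_S5P folds of 5.82 and 9.98 in animals 7 and 9, and no H3K4me1 peak within 777297 bp. At chromosome 4, 28299144 to 28300105, MBD3 folds were 29.5, 32.1 and 41.4, so animal 9 was the highest here.

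Among the members without MBD3 in any animal, the best mean PolII_S5P percentile, taken over the animals with a peak, was that of 2 neighbouring members at chromosome 1, 153783468 to 153784776 and 153787508 to 153788709. Both had the same PolII_S5P folds, 14.1 and 16.3 in animals 7 and 9, and no peak in animal 5. Their mean percentile was also the same (99.6), so the 2 members may share 1 peak per animal. At chromosome 4, 114913466 to 114914582, PolII_S5P folds were 7.82, 19.9 and 15.9 and the H3K27ac folds 2.52 and 1.83, with no H3K27ac peak in animal 9. The other 2 were at chromosome 3, 34706746 to 34708401, and chromosome 10, 108513558 to 108514388. Members that share their strongest PolII_S5P peak with another member made up 1.44%, 3.34% and 2.96% of those with a peak in animals 5, 7 and 9.

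Members were found on all 19 chromosomes and made up 6.32% (chromosome 1) to 9.77% (chromosome 11) of the eligible regions there, with 9.76% on chromosome 17. MBD3 in all 3 animals covered 74.5% (chromosome 8) to 85.4% (chromosome 14) of the members of a chromosome. Neighbouring members were a median of 204030 bp apart, and 248 of 3944 gaps (6.29%) were 10000 bp or less.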

How the data were processed

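Cortex of 3 animals was profiled with 5 antibodies, and 15 peak lists were used, 1 per library. MACS2 2.2.7.1 is the peak caller that appears in the submitters' processing notes. Those notes also name Picard 2.18.29, SAMtools 1.16.1, Trim Galore 0.6.7 and bcl2fastq 2.20, and as genome builds mm39 and hg38, of which mm39 matches the lists' contig names. Which aligner and which control were used is not given in the sources used here. For each peak the authors deposited a score, a fold enrichment ratio over local background, a −log10 p-value and a −log10 q-value, together with the summit's offset from the peak start. Only the fold, the −log10 q-value, the summit and the position were used. Read depth is not in these lists, and a peak list holds only what passed the caller's threshold, so the number of peaks limits the precision.

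H3K27ac peaks on chromosomes 1 to 19 were merged, and peaks overlapping a region by at least 1 bp were assigned to it, keeping the highest fold per library. Contigs outside these chromosomes, whose names are written differently in the MBD3 and TDG lists, were left out. Coordinates are counted from 1. Each of 10 comparisons set 3 values, 1 per animal, against 3 by a two-sided exact permutation test with Benjamini-Hochberg adjustment, which cannot give a p below 0.1. The animal number in the labels ties the libraries of 1 animal together and so pairs the samples, and a paired sign-flip test was the alternative. Other alternatives changed the peak threshold, the overlap, the merging, the list length and the rule, compared within width or strength classes, or left out each animal. The 8 regions named for PolII_S5P had its best mean fold percentile among members with PolII_S5P and H3K27ac in all 3 animals. The 8 named for MBD3 had its best mean fold percentile among members with MBD3 in all 3. Also named are those with TDG in at least 2 animals and the 5 strongest in PolII_S5P without MBD3. Of the 3 widest and narrowest, the extremes are printed. Members and rules were chosen with earlier results of these data known. Gene starts, CpG content and gene lists were not analysed here, since no mm39 annotation was used. Python 3.11.15, numpy 2.4.6, scipy 1.17.1 and matplotlib 3.10.9 were used, and the code was tested on simulated lists.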

Additional observations from a re-analysis of the deposited data

Results flagged for a closer look

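Chromosome X lay outside the choice of regions. Applied there, the rule found 88 regions among 789 eligible ones (11.2%), while the chromosomes used ranged from 6.32% to 9.77%. All 3 animals are female. MBD3 was called at 83, 85 and 49 of the 88 regions in animals 5, 7 and 9, and TDG at 1. At the members, MBD3 was at 95.5%, 95.8% and 79.0%, and TDG of any animal at 1.29%. The MBD3 background over the eligible regions of X was not computed. Of the 789 eligible regions on X, 5 had PolII_S5P together with H3K4me1 in at least 2 libraries. On the chromosomes used it was 1254 of 51119 (2.45%). No test was made of the difference between X and the other chromosomes.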

How the results depend on the processing

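The number of members was 1393 with lists of equal length, 1269 with PolII_S5P required in all 3 libraries, 2275 with no H3K4me1 allowed within 1000 bp, and 1379 (without animal 7) to 3914 (without animal 5) with 1 animal left out. In 14 alternatives each, the share of regions with MBD3 stayed larger at members, by 11.5 to 29.2 points against regions with PolII_S5P and H3K4me1, 28.9 to 40.2 against those with H3K4me1 alone and 38.8 to 53.1 against those with neither mark. The TDG difference from regions with H3K4me1 alone, 0.000162 points, took the other sign with the summit required inside the region (-0.0317), peaks merged within 500 bp (-0.0680), classes of H3K27ac strength (-0.125), H3K27ac in all 3 libraries (-0.0311) and no H3K4me1 within 1000 bp (-0.0902), and spanned -0.363 to 0.379 with 1 animal left out. The TDG difference from regions with neither mark, 0.271 points, turned to -0.00186 at a −log10 q-value of at least 5 and to -0.0466 with lists of equal length, and was 0.713 without animal 7. The MBD3 percentile difference spanned -10.7 to 3.10 with 1 animal left out, and the summit difference was 6.67 bp at the stricter q-value and -1.67 bp with lists of equal length. The causes were not tested. With the animal as replicate block, an exact sign-flip test whose smallest p is 0.25, the MBD3 differences of 19.3, 36.4 and 51.9 points each had p = 0.25. With 1 animal left out, the smallest p is 0.333. None of these designs can pass 0.05, so the p-values say nothing about stability. Of 121 alternatives in all, 11 changed a sign, 5 moved the count of members by over 1.5 times, and the others kept their direction or, for the count, stayed within 1.5 times. The sign-flip test is counted among the 121, and among each 14. It reuses the main values, so it could not change a sign.

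The lists give presence or absence over a caller's threshold, so a region without a peak is not shown to lack the factor. TDG shares rest on 125 to 934 peaks a list, and no list gives read depth.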
